A study of Mus musculus with 3 samples.

Results

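The genes of the mouse major histocompatibility complex (MHC), with the genes that supply and switch them on, were followed through chromatin accessibility in 3 fractions of CD4+ T cells. The set holds 44 of 21770 RefSeq protein-coding genes. They are the genes on chromosome 17 whose symbols start with H2-, plus B2m, Tap1, Tap2, Tapbp, Psmb8, Psmb9, Nlrc5, Ciita and Cd74. Peaks of the 3 deposited lists that shared at least 1 base were merged into 57457 regions. The 110 regions whose nearest protein-coding gene, at most 100 kb away, is one of the 44 are described here. Of these, 95 lie on chromosome 17, 60 overlap a gene of the set, and 38 of the 44 genes have at least 1 region. Assignment to a gene is by distance alone.

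The 3 fractions were sorted from colon-draining mesenteric lymph nodes of 4 wild-type C57BL/6J recipient mice. Naive CD4+ T cells with the transgenic CBir1 receptor, specific for a bacterial flagellin of the gut, were taken from donor spleens, stained with CellTrace Violet, a dye diluted at each division, and injected. All recipients drank 2% dextran sulfate sodium, which injures the colon epithelium, for 7 days from the day after transfer, and were dosed on days 7, 10 and 13 with 1 mg/kg of FTY720, which stops lymphocytes from leaving the nodes. Nodes were taken on day 14. The divided fraction is CBir1 cells with diluted dye (CTVdim), the undivided fraction is CBir1 cells that kept it (CTVhi), and the polyclonal fraction is all endogenous CD4+ T cells without the CBir1 receptor. Cells of the same fraction from 2 mice were pooled, in duplicate, and 1 peak list per fraction was analysed here. How the duplicates entered the lists is not known, so each list is treated below as 1 library. Differences therefore have no replicate check and come without p-values. No mouse without dextran sulfate sodium or FTY720 was compared. The CBir1 cells come from donors and the polyclonal cells from recipients, so origin and receptor cannot be told apart in any comparison with the polyclonal library.

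MHC class I molecules display peptides made in the cytosol to CD8+ T cells and are carried by nearly all nucleated cells, T cells included. Their heavy chains pair with B2m, proteasome subunits such as Psmb8 and Psmb9 cut the peptides, Tap1 and Tap2 pump them into the endoplasmic reticulum, and Nlrc5 acts on the promoters as transactivator. MHC class II molecules display peptides from endosomes to CD4+ T cells, need the transactivator Ciita, and are made mainly by B cells, dendritic cells and macrophages. Mouse T cells, in contrast to activated human T cells, generally do not make them. Both kinds of promoter carry a module of X and Y boxes, bound by the RFX, CREB and NF-Y proteins, and many class I promoters also carry a kappa B site and an interferon-stimulated element.

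The promoter stretches below set classical class I, Qa-2, light chain and class II promoters side by side. They show where the exact letters searched for these elements stand, so variant forms of an element are not marked. All lie in promoter windows under a peak in all 3 libraries. They are RefSeq sequences of GRCm38.p6, the assembly of mm10, printed 5′ to 3′ on the strand of the gene. Capitals mark the letters searched on both strands, which were CCAAT or its reverse complement ATTGG (Y box), AGCAAC (core of the X1 box), TGACG (core of the X2 box), GAAANNGAA (core of the interferon-stimulated element) and GGGATTCCC (core of a kappa B site). H2-K1 lies on the minus strand at chr17:34000334-34000465, and H2-D1 on the plus strand at chr17:35262916-35263053; both encode classical class I heavy chains. H2-Q6 at chr17:35424670-35424807 and H2-Q7 at chr17:35439015-35439151, both on the plus strand, encode the nonclassical class I molecule Qa-2. B2m, the light chain, is on the plus strand at chr2:122147540-122147646. H2-Aa, the alpha chain of the class II molecule I-A, is on the minus strand at chr17:34287859-34287905, and H2-Eb1, a class II beta chain, is on the plus strand at chr17:34305767-34305844.
H2-K1: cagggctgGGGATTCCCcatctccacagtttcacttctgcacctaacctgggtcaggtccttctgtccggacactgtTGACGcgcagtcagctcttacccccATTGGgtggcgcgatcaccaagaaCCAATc
H2-D1: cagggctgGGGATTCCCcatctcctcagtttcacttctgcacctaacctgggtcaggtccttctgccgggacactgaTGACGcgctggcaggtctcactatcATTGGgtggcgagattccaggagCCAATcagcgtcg
H2-Q6: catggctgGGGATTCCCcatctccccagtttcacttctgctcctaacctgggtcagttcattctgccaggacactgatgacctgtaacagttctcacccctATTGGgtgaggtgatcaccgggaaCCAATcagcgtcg
H2-Q7: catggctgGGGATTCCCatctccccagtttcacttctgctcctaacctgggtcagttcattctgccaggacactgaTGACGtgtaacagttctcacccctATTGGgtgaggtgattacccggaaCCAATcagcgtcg
B2m: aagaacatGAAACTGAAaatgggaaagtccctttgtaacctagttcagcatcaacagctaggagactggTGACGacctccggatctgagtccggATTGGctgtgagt
H2-Aa: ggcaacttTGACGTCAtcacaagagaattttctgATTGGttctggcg
H2-Eb1: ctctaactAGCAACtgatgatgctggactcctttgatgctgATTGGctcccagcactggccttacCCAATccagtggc

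The kappa B letters stood in the windows of 4 genes of the set, H2-K1, H2-D1, H2-Q6 and H2-Q7, of 37 with a window in the table, and in 0.353% of all 32851 promoter windows. Each window runs from 250 bases before to 50 bases after a start site. TGACG followed by ATTGG after 15 to 25 bases, a pair defined after these sequences had been read, stood in 6 of the 37 genes (B2m, H2-Aa, H2-D1, H2-K1, H2-M3 and H2-Q7) and in 0.435% of all windows. The gap between the pair was 20 bases in H2-K1, H2-D1, B2m and H2-M3, 19 in H2-Q7 and 21 in H2-Aa. In H2-K1 and H2-D1, 60 bases separate the kappa B letters from TGACG, and in H2-Q7 the number is 59. H2-Q6, otherwise nearly the same letters as H2-Q7, holds no TGACG in its window. CCAAT stood in 33 of the 37 genes, against 37.4% of all windows, and TGACG in 15, against 20.8%. AGCAAC stood in 7, against 14.8%, and GAAANNGAA in 3 (B2m, H2-T22 and H2-T23), against 8.56%. The genes share ancestry, so these counts are not independent of one another, and a match of letters is not evidence of binding. Nor is a missing match evidence that an element is absent, since only exact letters were searched.

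Of the 40 promoter windows of the set, 23 lay under a peak in all 3 libraries (57.5%, interval 42.2 to 71.5), against 37.7% of all promoter windows, and 16 under none. A divided peak covered 24 windows, against 39.5% of all, an undivided one 24, against 38.5%, and a polyclonal one 23, against 38.9%. Some windows overlap, so they are not independent. The median distance of the summit from the start site was −41 bases in divided cells, −37 in undivided and −26 in polyclonal cells, upstream of the start as the printed stretches are. In the undivided library the summit was 9 bases before the first of the listed H2-K1 starts and 37 before that of H2-Q7. The H2-DMb2 window was the one covered in divided and undivided but not in polyclonal cells.

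Accessibility is given as the summit pileup, the number of fragments stacked at the highest point of a region in 1 library, recovered from the deposited fold enrichment and −log10 p-value. Pileups, backgrounds and the authors' fold are given as they are in each library. Ratios between libraries are scaled so that the median over all regions called in all 3 libraries is 1. Before scaling that median was 1.21 for divided over undivided, 1.19 for divided over polyclonal and 0.9885 for undivided over polyclonal. Intervals at the 95% level are exact binomial for ratios and Wilson for shares, and cover counting error only. How many reads each library had is not known here. The lists held 47963 divided, 41876 undivided and 44426 polyclonal peaks. By the lowest local background, a proxy of depth, the ratio of divided to undivided was 1.496 and of divided to polyclonal 1.396, more than by the shared regions. The gene-end windows of all 8 T cell marker genes listed, Cd3e and Cd4 among them, held a peak in all 3 libraries. No peak lay at the ends of Cd79b, Ms4a1, Pax5 or Cd22 (B cells), of Zbtb46, Itgax, Cd209a or Siglech (dendritic cells), or of Csf1r, Lyz2, Fcgr1 or Adgre1 (macrophages and other myeloid cells) in any library.

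Most of the set's regions were open in every fraction. All 3 libraries called 78 of the 110 regions (70.9%, interval 61.8 to 78.6), against 56.9% of all regions. The median region was 643.5 bases wide, with a pileup of 53 in divided cells, 40.5 in undivided and 38 in polyclonal cells, against 531 bases and 31, 30 and 28 for all other regions. The part of width and height in the shared share was not tested. A peak within 1 kb of a gene end was found for 30 of the 44 genes in divided cells, 28 in undivided and 30 in polyclonal cells, against 55.9%, 54.2% and 55.0% of all protein-coding genes. Pairwise, 15 regions were found in divided and not undivided cells (13.6%, against 21.4% of all regions), and 9 in undivided and not divided cells (8.18%, against 10.3%). Divided and not polyclonal cells had 10 (9.09%, against 18.3%), and polyclonal and not divided cells 7 (6.36%, against 11.5%). Undivided and not polyclonal cells had 10 (9.09%, against 10.3%), and polyclonal and not undivided cells 13 (11.8%, against 14.6%). For the regions called in divided but not in polyclonal cells the interval, 5.01 to 15.9%, lies below the share of all regions, and for those called in divided but not in undivided cells it just does, at 8.44 to 21.3%. Both intervals treat regions as independent, although most lie on the same chromosome, and the part of height in these shares was not tested either.

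**Figure D1:**
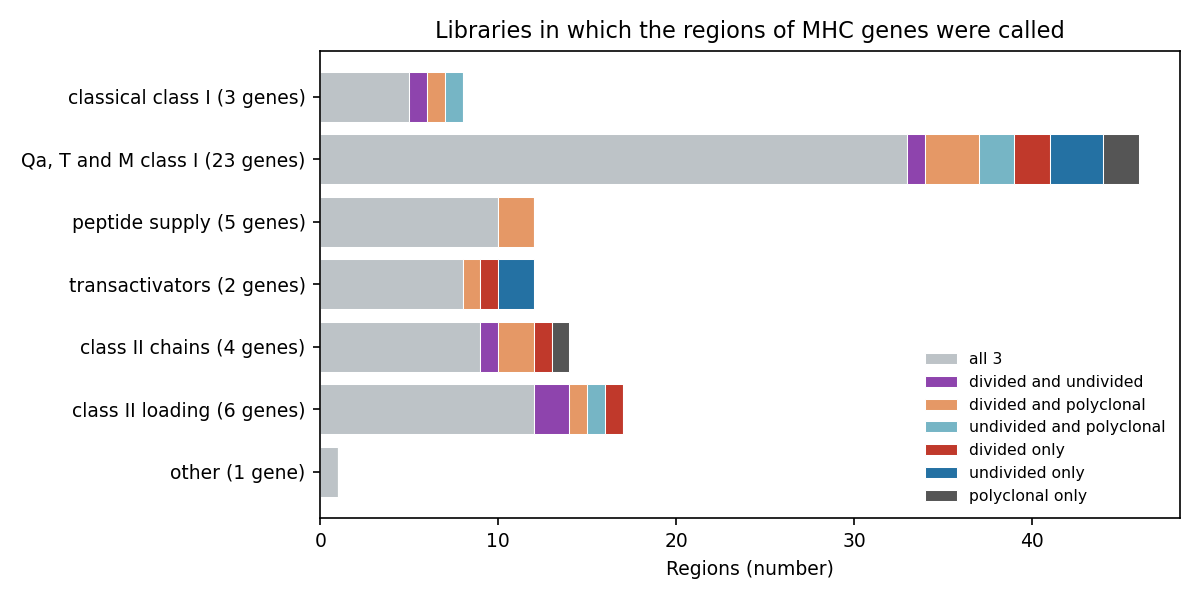
Number of accessible regions of the MHC gene set, by role of the gene (rows), with each bar divided by the libraries in which the region was called. The grey part, regions called in all 3 libraries, is the longest in every group, and the classical class I and peptide supply groups have no region called in a single library.

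Among regions called in both libraries of a pair, the median ratio was 0.965 for divided over undivided (83 regions), 1.01 for divided over polyclonal (88) and 1.01 for undivided over polyclonal (82), against 1.004, 1.01 and 1.011 for all other regions. Of regions called in both libraries and with a pileup of at least 20 in at least 1 of them, 3 of 72 were at least 1.5-fold higher in divided than in undivided cells, against 12.1% of all regions so compared, and 4 were at least 1.5-fold lower, against 9.59%. For divided over polyclonal, 10 of 75 were higher, against 11.8%, and 3 lower, against 6.83%. For undivided over polyclonal, 5 of 70 were higher, against 6.0%, and 2 lower, against 5.97%. The 3 of 72, a share of 4.17% (1.43 to 11.5), is below the background share, while the 10 of 75 is close to it. That interval treats regions as independent, although most lie on the same chromosome. Regions of the set are also taller than other regions, and the part of height in this share was not tested. These splits depend on the scaling. With libraries scaled by their lowest background, which lowers the ratios of all regions of a pair by the same factor, the median ratio was 0.778 for divided over undivided and 0.858 for divided over polyclonal, with 2 regions higher and 15 lower in the first pair and 3 higher and 7 lower in the second. The share of all regions past 1.5-fold under that scaling was not computed, so these counts cannot be read as particular to the set.

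**Figure D2:**
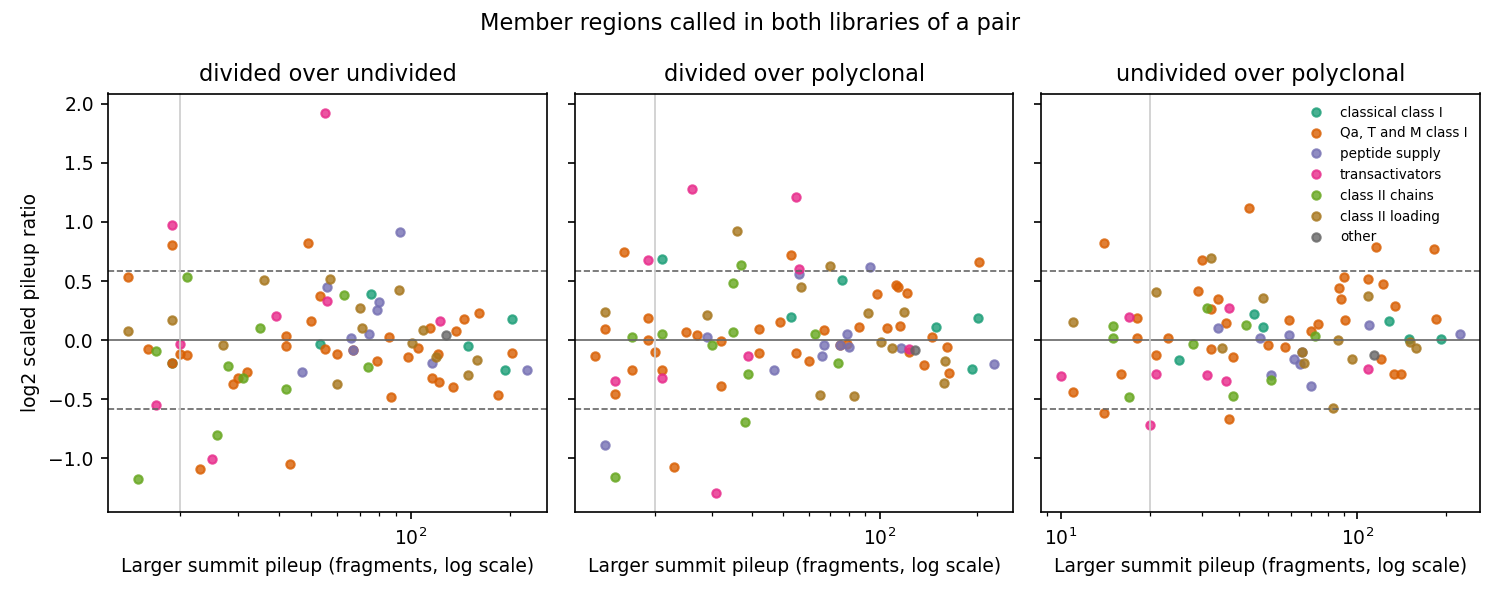
Log2 scaled pileup ratio (vertical axis) against the larger pileup of the 2 libraries (horizontal, log scale) for each region of the MHC gene set called in both libraries of a pair, coloured by role. Dashed lines mark a 1.5-fold difference and the grey vertical line the pileup of 20 needed to be counted; most points lie between the dashed lines, and 1 Nlrc5 region stands highest in the panel of divided over undivided.

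The classical class I genes carried some of the tallest regions. The H2-K1 promoter (chr17:33999835-34000882) had a pileup of 202 in divided cells, 148 in undivided and 149 in polyclonal cells, and ranked in the top 2.62% of divided peaks. Scaled for depth, divided over undivided was 1.13 (0.911 to 1.41) and divided over polyclonal 1.14 (0.918 to 1.42), so counting error covers both differences. The H2-D1 promoter (chr17:35262605-35263473) had 193 in divided cells, 191 in undivided and 192 in polyclonal cells, scaled ratios of 0.838 (0.682 to 1.03) and 0.845 (0.688 to 1.04) in the same order. At B2m (chr2:122147316-122148822, a region that also reaches the neighbouring Patl2) the values were 149, 128 and 116 in divided, undivided and polyclonal cells. Thus none of the 3 promoters differed by 1.5-fold in any pair.

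Further regions of H2-K1 and H2-D1 were weaker and less shared. A region inside H2-K1 (chr17:33998776-33999613) had 76 in divided cells, 48 in undivided and 45 in polyclonal cells. One beyond its end (chr17:33991943-33992256) had 19 in divided and 18 in undivided cells and no polyclonal peak. Downstream of H2-D1, chr17:35269678-35270224 had 22 in undivided and 25 in polyclonal cells with no divided peak. The region at chr17:35274751-35275005 had 21 in divided and 11 in polyclonal cells with no undivided peak, a ratio of 1.60 whose interval (0.740 to 3.69) includes 1. A missing peak means that the authors' threshold was not reached, not that the site was closed.

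The peptide supply genes were open throughout, with 10 of 12 regions called in all 3 libraries and a gene-end peak at all 5 genes in each. The tallest region of the whole set was the shared promoter of Psmb9 and Tap1 (chr17:34186951-34188116), an immunoproteasome subunit and half-transporter that are transcribed away from each other. Its pileup was 225 in divided cells, 222 in undivided and 217 in polyclonal cells. It stood in the top 1.61%, 1.06% and 1.17% of the divided, undivided and polyclonal peaks. Tapbp, which encodes tapasin, the bridge between class I and the transporter, had 80 in divided cells, 53 in undivided and 70 in polyclonal cells at chr17:33920280-33921025. The strongest Tap2 region (chr17:34211529-34212222) had 47 fragments in each of the 3 libraries. Tap2 also had both regions of this group that undivided cells lacked, chr17:34210640-34210921 with 29 in divided and 24 in polyclonal cells, and chr17:34218594-34219340 with 9 and 14.

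Psmb8, another immunoproteasome subunit, had the one region of this group past 1.5-fold. Just beyond the gene's last base (chr17:34201830-34203357) the pileup was 93 in divided cells, 41 in undivided and 51 in polyclonal cells. Divided over undivided was 1.88 (1.29 to 2.79) and divided over polyclonal 1.53 (1.08 to 2.20), while undivided over polyclonal was 0.813 (0.526 to 1.25). The local background there was also highest in divided cells, at 23.3 fragments against 12.3 in undivided and 15.9 in polyclonal cells, and the authors' fold enrichment, which divides by it, was 3.87, 3.16 and 3.08. At the Psmb8 promoter itself (chr17:34197403-34198627) the pileup was 75 in divided cells, 60 in undivided and 65 in polyclonal cells, with all ratios between 0.934 and 1.04.

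**Figure D3:**
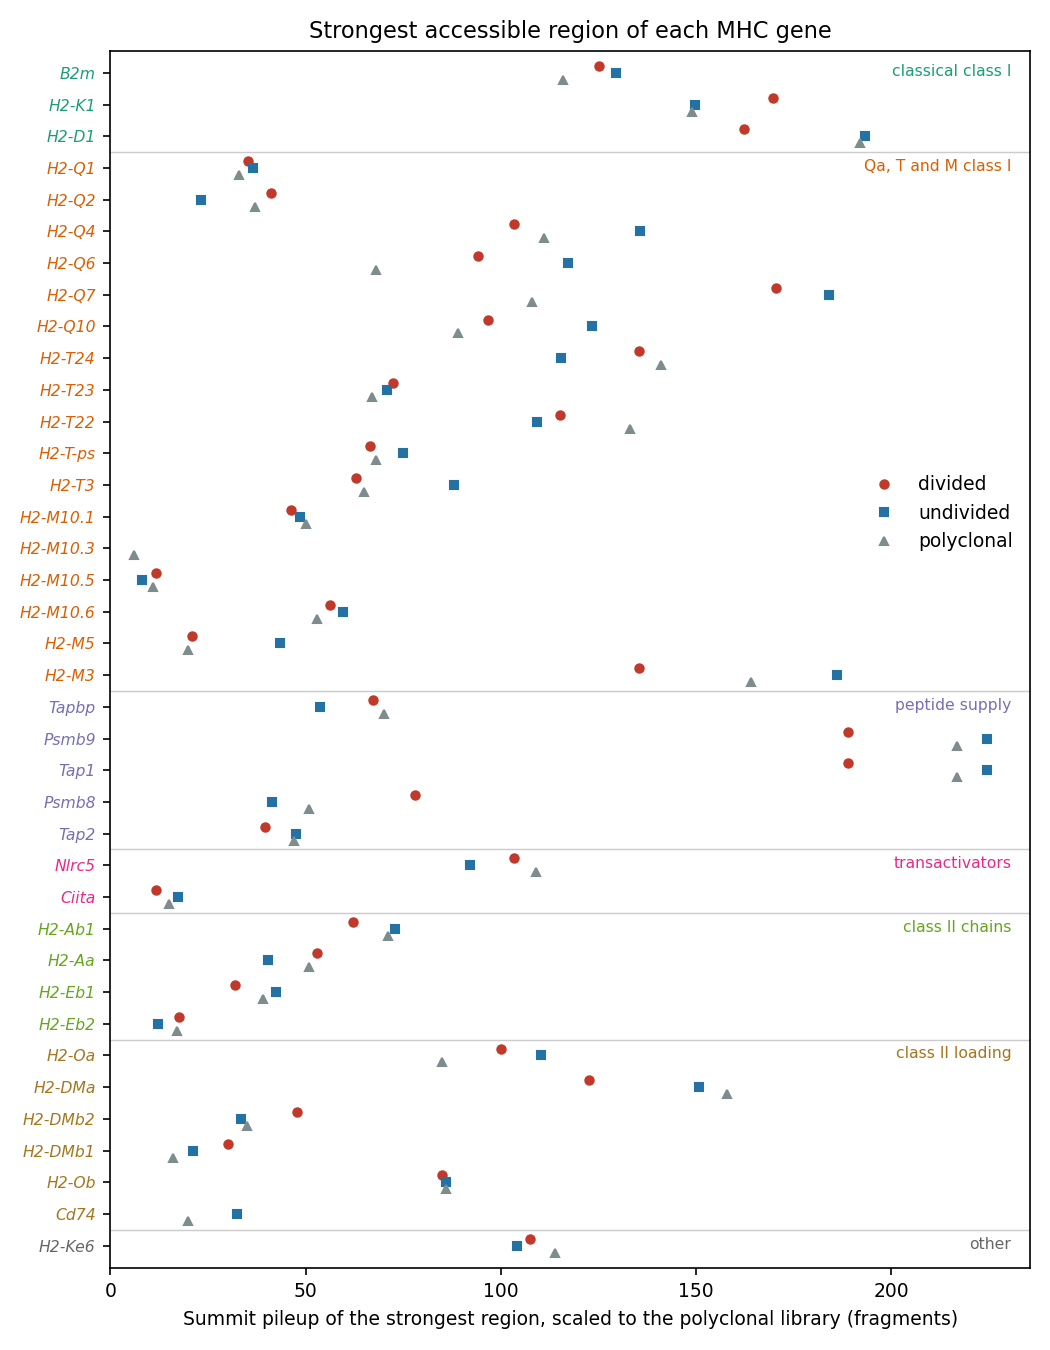
Scaled summit pileup (fragments, on the scale of the polyclonal library) of the region with the highest scaled pileup for each of the 38 MHC genes with a region, in divided (circles), undivided (squares) and polyclonal (triangles) cells; no error bars are drawn, since each point is 1 library. Psmb9 and Tap1 share the tallest region, the polyclonal point lies left of both others at H2-Q6 and H2-Q7, and the divided point lies right of both others at Psmb8.

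The transactivator genes held the region with the largest divided over undivided ratio of the set. The promoter of Nlrc5 (chr8:94433839-94434657) was open in all fractions, with 123 fragments in divided cells, 91 in undivided and 109 in polyclonal cells, scaled ratios of 1.12 (0.848 to 1.49), 0.949 (0.727 to 1.24) and 0.845 (0.632 to 1.13) for divided over undivided, divided over polyclonal and undivided over polyclonal. Inside the gene, chr8:94458583-94458938 had 55 fragments in divided cells, 12 in undivided and 20 in polyclonal cells. Divided over undivided was 3.80 (2.01 to 7.80), divided over polyclonal 2.31 (1.36 to 4.07) and undivided over polyclonal 0.607 (0.271 to 1.30). The local background was 6.57 in divided cells, 2.62 in undivided and 2.80 in polyclonal cells, and the authors' fold enrichment 7.40, 3.60 and 5.52, so the order of the libraries was the same on the authors' scale and the gaps smaller.

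The other Nlrc5 regions differed in both directions. At chr8:94447276-94447815 divided cells had 26 and polyclonal cells 9 fragments (2.43, interval 1.10 to 5.89), and undivided cells no peak. At chr8:94453922-94454651 the pileup was 56 in divided cells, 37 in undivided and 31 in polyclonal cells, with divided over polyclonal at 1.52 (0.962 to 2.44). Before the gene, chr8:94422348-94422725 had the opposite order, 15 in divided cells, 25 in undivided and 31 in polyclonal cells. Divided over undivided was there 0.498 (0.244 to 0.981) and divided over polyclonal 0.407 (0.204 to 0.777). Of the 10 Nlrc5 regions, 7 were called in all 3 libraries, against 56.9% of all regions. Besides the one that undivided cells lacked, 1 was called in divided cells alone, with 15 fragments, and 1 in undivided cells alone, with 6.

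**Figure D4:**
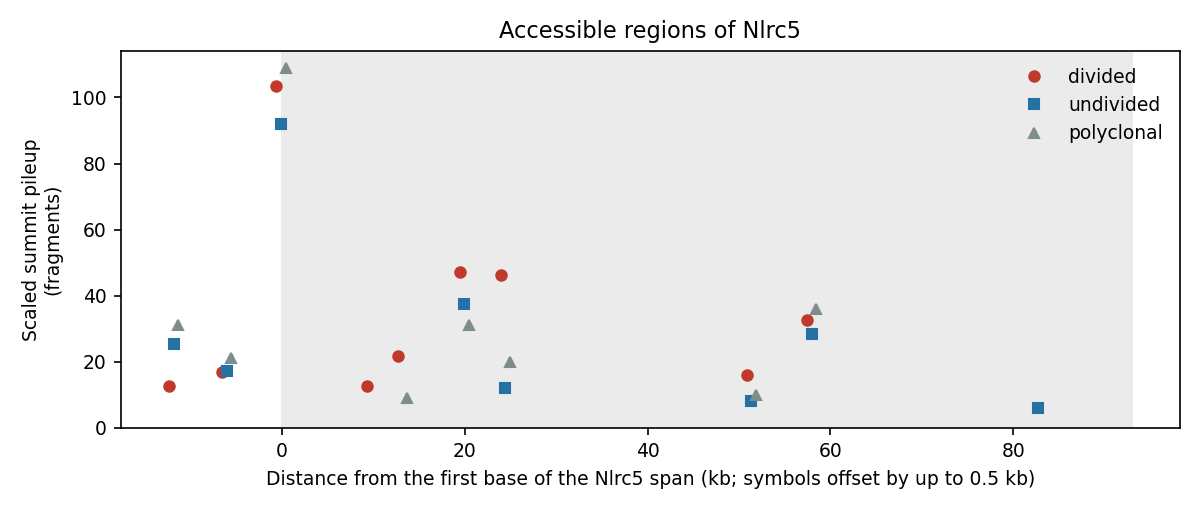
Scaled summit pileup (fragments) of the 10 regions assigned to Nlrc5 against their distance from the first base of the gene (kb), for divided, undivided and polyclonal cells; the grey band is the gene and symbols are offset slightly so that they do not overlap. The promoter region is the tallest in all 3 libraries, and the region inside the gene with 55 fragments before scaling in divided cells stands above 12 in undivided and 20 in polyclonal cells.

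Ciita, which switches on class II genes and is transcribed from separate promoters in dendritic cells and B cells, had no peak within 1 kb of either end in any library. Its 2 regions lay inside the gene and were low. The one at chr16:10524828-10525148 had 14 in divided cells, 17 in undivided and 15 in polyclonal cells. The one at chr16:10521166-10521444 had 14 in undivided cells, a −log10 q of 8.37, and no peak in divided or polyclonal cells.

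Class II chain genes nevertheless had open promoters, at lower pileups than those of H2-K1, H2-D1 and B2m. The H2-Ab1 promoter (chr17:34263040-34263734), the beta chain of I-A, had 74 in divided cells, 72 in undivided and 71 in polyclonal cells. H2-Aa (chr17:34287681-34288137) had 63, 40 and 51 in divided, undivided and polyclonal cells, and H2-Eb1 (chr17:34305616-34305987) 38, 42 and 39. None of these promoters reached 1.5-fold in a pair. H2-Eb2, a further class II beta chain gene, lacked a gene-end peak in every library, and its strongest region (chr17:34347498-34348160) had 21 in divided cells, 12 in undivided and 17 in polyclonal cells. These are accessibilities in bulk fractions, in which more open chromatin per cell and a few cells of another type cannot be told apart. Of the 10 genes of the B cell list, divided cells had a gene-end peak at 5, undivided cells at 2 and polyclonal cells at 3, with summed scaled pileups of 134, 119 and 139. The dendritic list had 4, 2 and 3 of 8, with 192, 208 and 196, and the myeloid list 4 of 8 in each, with 118, 96.1 and 108. Over all genes the shares with a gene-end peak were 55.9%, 54.2% and 55.0%. The counts of the B cell and dendritic lists differed through low peaks. Blk (10), Fcer2a (7) and Clec9a (10) had one in divided cells alone. Ebf1 (12 and 11) and Batf3 (19 and 7) had one in divided and polyclonal cells. The largest scaled part of the B cell sum was Cd79a (81.5, 96.1 and 94.0 in divided, undivided and polyclonal cells). That of the dendritic sum was Xcr1 (147, 174 and 171), and that of the myeloid sum Spi1 (58.0, 49.6 and 39.0). A window at a gene end can hold a neighbour's promoter. Within the myeloid list Cebpa, with 21 in divided cells, 10 in undivided and 21 in polyclonal cells, was 1.74-fold higher in divided than in undivided cells. The part of such cells in the class II peaks was not tested.

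Several regions away from the class II promoters were not shared or differed in height. At chr17:34261631-34261813, before H2-Ab1, divided cells had 35 and polyclonal cells 21 fragments, and undivided cells no peak. At chr17:34264853-34265278, inside H2-Ab1, divided cells had 18 and undivided cells 26, a ratio of 0.574 (0.297 to 1.09), with no polyclonal peak. Between the starts of H2-Aa and H2-Eb1, chr17:34296051-34296529 had 37 in divided and 20 in polyclonal cells, a ratio of 1.56 (0.880 to 2.83), and no peak in undivided cells. Inside H2-Eb1, chr17:34309499-34310144 had 28 in divided cells, 27 in undivided and 38 in polyclonal cells, with divided over polyclonal at 0.619 (0.366 to 1.04). Each of these 3 ratios is past 1.5-fold with an interval that includes 1.

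The genes for class II loading ranged from tall to barely called. H2-DMa and the H2-DMb genes encode the H2-DM dimer, which exchanges peptides on class II. The highest region of H2-DMa (chr17:34119096-34120481) is shared with the chromatin reader gene Brd2 and had 146 in divided cells, 149 in undivided and 158 in polyclonal cells. A region of H2-DMa alone (chr17:34135290-34135941) was as tall, with 159, 148 and 151 in divided, undivided and polyclonal cells. In the stretch next to Brd2, chr17:34123388-34123575 was called in divided cells alone, with 60 fragments and a −log10 q of 5.32. H2-DMb2 (chr17:34142839-34143672) had 57 in divided cells, 33 in undivided and 35 in polyclonal cells, and its promoter region (chr17:34144870-34145156) 19 in divided and 14 in undivided cells with no polyclonal peak. The only region of H2-DMb1 (chr17:34164100-34164772) had 36, 21 and 16 in divided, undivided and polyclonal cells, with divided over polyclonal at 1.89 (1.02 to 3.65).

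H2-Oa and H2-Ob encode H2-O, an inhibitor of H2-DM. The strongest H2-Oa region (chr17:34101388-34102017) had 119 in divided cells, 109 in undivided and 85 in polyclonal cells, and its neighbour (chr17:34102746-34103163) 70, 48 and 38, with divided over polyclonal at 1.55 (1.03 to 2.36). A more distant one (chr17:34079526-34079846) had 27 in divided and 23 in undivided cells and no polyclonal peak. H2-Ob had its strongest region before the gene (chr17:34234825-34235426), with 101, 85 and 86 in divided, undivided and polyclonal cells and all 3 ratios between 0.985 and 1.00. Cd74, the invariant chain that guards the class II groove, had 1 region at its gene end with 29 in divided and 21 in polyclonal cells and no undivided peak. A second, inside the gene, had 32 in undivided and 20 in polyclonal cells, a ratio of 1.62 (0.898 to 2.99), and no divided peak. The CBir1 fractions thus each lacked a different one of the Cd74 regions called in polyclonal cells.

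Nonclassical class I genes of the Q, T and M series made up 23 of the 44 genes and 46 of the 110 regions. Of the 46, 33 were called in all 3 libraries, against 56.9% of all regions. These genes arose by repeated duplication and some are nearly identical, as the printed H2-Q6 and H2-Q7 stretches show, so aligned reads may be lost or split between copies, and their values are uncertain to that extent. The settings for reads with several matches are not known here. The H2-Q7 promoter (chr17:35438657-35439589) had 203 fragments in divided cells, 182 in undivided and 108 in polyclonal cells. Divided over undivided was 0.925 (0.754 to 1.14), divided over polyclonal 1.58 (1.25 to 2.01) and undivided over polyclonal 1.71 (1.34 to 2.18). Both CBir1 libraries were above the polyclonal one, and their own difference was within counting error. The strongest region assigned to H2-Q6 (chr17:35415307-35416210) had 112 in divided cells, 116 in undivided and 68 in polyclonal cells, with undivided over polyclonal at 1.73 (1.27 to 2.36) and divided over polyclonal at 1.38 (1.01 to 1.90). The H2-Q6 promoter (chr17:35424312-35425239) had 121, 109 and 77 in divided, undivided and polyclonal cells, and the next region (chr17:35425707-35426122) 53, 34 and 27, with divided over polyclonal at 1.65 (1.02 to 2.73).

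The same order ran along the stretch from beyond H2-Q4 to before H2-Q10, a stretch delimited after its values had been seen. It holds 8 regions, 6 of them called in all 3 libraries, and in 6 of 6 both CBir1 libraries were above the polyclonal one. The median ratio was 1.35 (range 1.09 to 1.65) for divided over polyclonal and 1.44 (1.27 to 1.73) for undivided over polyclonal, and 0.912 (0.782 to 1.29) for divided over undivided. From H2-D1 to the end of H2-Q4, the medians of 8 such regions were 0.930 for divided over polyclonal and 1.01 for undivided over polyclonal. The local background of the stretch differed likewise, being 1.11 to 1.51 times the polyclonal one in divided cells and 1.29 to 1.60 times in undivided cells after the same scaling. From H2-D1 to the end of H2-Q4 it was 0.832 to 1.16 times and 0.586 to 1.05 times. By the authors' fold enrichment, which divides by that background, and with its own median over shared regions set to 1, the medians were 1.12 for divided over polyclonal and 1.09 for undivided over polyclonal, against 0.996 and 1.06 from H2-D1 to the end of H2-Q4. At H2-Q7 the authors' fold was 12.4 in divided cells, 13.4 in undivided and 11.4 in polyclonal cells. The part of the raised local background in the raised pileups was not tested. The other 2 regions of the stretch, both assigned to H2-Q4, did not share 1 order. At chr17:35395079-35395392 undivided cells had 30 and polyclonal cells 19 fragments (1.60, interval 0.870 to 3.00), with no divided peak. The region at chr17:35387325-35387531 was called in polyclonal cells alone, with 16 fragments.

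**Figure D5:**
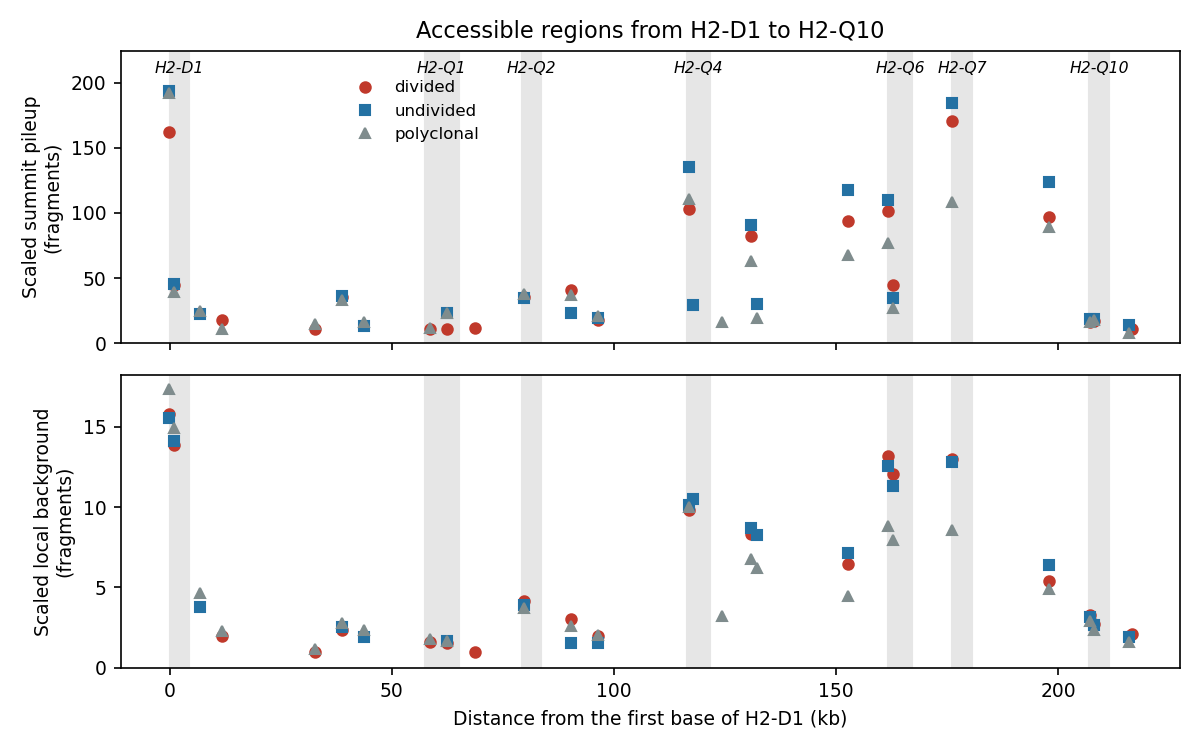
Scaled summit pileup (upper panel) and scaled local background (lower panel), in fragments, of the regions from H2-D1 to H2-Q10 against the distance from the first base of H2-D1 (kb); grey bands are genes, and colours and symbols stand for divided, undivided and polyclonal cells. Between H2-Q4 and H2-Q10 the divided and undivided points lie above the polyclonal ones in both panels wherever all 3 are drawn, while at the H2-D1 promoter the divided point lies below.

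Some of the remaining regions of the Q genes are given singly. H2-Q4 (chr17:35379066-35380706) had 123 in divided cells, 134 in undivided and 111 in polyclonal cells. H2-Q10, which encodes a secreted class I molecule known from the liver, had its strongest region before the gene (chr17:35460542-35461570, the last of the stretch above) with 115, 122 and 89 in divided, undivided and polyclonal cells, and no more than 20 fragments at the gene itself. Beyond H2-Q2, chr17:35353061-35353818 had 49 in divided cells, 23 in undivided and 37 in polyclonal cells, with divided over undivided at 1.77 (1.06 to 3.04) and undivided over polyclonal at 0.629 (0.357 to 1.09). Inside H2-Q1, chr17:35325270-35325593 had 13, 23 and 23 in divided, undivided and polyclonal cells, and divided cells were lower than both others, with ratios of 0.469 (0.218 to 0.965) to undivided and 0.475 (0.221 to 0.978) to polyclonal cells. The strongest region nearest to H2-Q1 (chr17:35301530-35302353) had 42, 36 and 33. H2-Q1 also had 4 regions of 12 to 16 fragments that were not called in all libraries, 2 in divided and polyclonal cells, 1 in undivided and polyclonal cells and 1 in divided cells alone.

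The T series was open with few differences. H2-T23 encodes Qa-1, a ligand of inhibitory receptors on natural killer cells, and had 86 in divided cells, 70 in undivided and 67 in polyclonal cells at chr17:36031676-36032890. H2-T22, whose product some gamma-delta T cells recognise, had 137, 108 and 133 in divided, undivided and polyclonal cells at chr17:36042131-36043148, a region that also reaches Gm6034. A weaker H2-T22 region (chr17:36035419-36035614) was called in undivided cells alone, with 36 fragments and a −log10 q of 13.5. The strongest regions of H2-T24 (chr17:35997010-35997618) had 161, 114 and 141, of H2-T-ps (chr17:36110688-36112000) 79, 74 and 68, and of H2-T3 (chr17:36205269-36206242) 75, 87 and 65 in divided, undivided and polyclonal cells. H2-T3 encodes the thymus leukaemia antigen, a ligand of CD8 alpha homodimers, and lacked a gene-end peak in every library. Beside H2-T24, chr17:36023716-36024144 had 50 in divided and 37 in undivided cells and no polyclonal peak.

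The M series was split between 1 tall region, at H2-M3, and genes with few regions or none. H2-M3, which presents peptides that start with formyl-methionine, as bacterial ones do, had 161 in divided cells, 184 in undivided and 164 in polyclonal cells at chr17:37269916-37271314. That region covers the promoter, but its summit lay inside the gene, 741, 742 and 741 bases after the start site in divided, undivided and polyclonal cells. Divided over undivided was 0.726 (0.584 to 0.901), short of 1.5-fold but with an interval below 1. Beside H2-M5, chr17:36982465-36982913 had 25, 43 and 20 in divided, undivided and polyclonal cells. Undivided cells stood above both others, with divided over undivided at 0.482 (0.282 to 0.807) and undivided over polyclonal at 2.18 (1.25 to 3.90). By the authors' fold enrichment undivided cells were again highest, with 10.7 in divided cells, 17.5 in undivided and 10.9 in polyclonal cells. Of the H2-M10 genes, known from neurons of the vomeronasal organ, none had a gene-end peak. The regions nearest to H2-M10.1 (chr17:36314751-36316039) and H2-M10.6 (chr17:36825663-36826310) had 55 and 67 in divided, 48 and 59 in undivided, and 50 and 53 in polyclonal cells. That of H2-M10.5 had 14, 8 and 11 in divided, undivided and polyclonal cells, and that of H2-M10.3 was called in polyclonal cells alone, with 6. The 6 genes without a region were H2-M1, H2-M2, H2-M9, H2-M10.2, H2-M10.4 and H2-M11. H2-Ke6, which lies in the complex and carries its prefix but encodes a steroid dehydrogenase, had 128, 103 and 114 in divided, undivided and polyclonal cells.

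Genes of antigen presentation outside the set were listed by role. Their counts of gene-end peaks stand against 55.9% of all genes in divided cells, 54.2% in undivided and 55.0% in polyclonal cells. Of 12 further genes of peptide supply, among them Psmb10, Calr and Erap1, all had a gene-end peak in every library, and 0 of 12 was past 1.5-fold in any pair. Of 13 regulators 11 had one in every library. Rfxank and Rfxap, subunits of the RFX complex, had 165 and 133 in divided, 139 and 109 in undivided, and 151 and 122 in polyclonal cells, and Rfx5 and Nfyc had no peak by this measure. None of the 11 was past 1.5-fold, the nearest being Irf8, an interferon regulatory factor, with 123 in divided cells, 69 in undivided and 83 in polyclonal cells and a divided over undivided ratio of 1.48. Of 7 genes of class II processing 5 had a gene-end peak in divided cells, 4 in undivided and 3 in polyclonal cells. The last 2 of these counts are near the share of all genes. Ctss, the protease that trims the invariant chain, was among them with 25 in divided and 19 in undivided cells and no polyclonal peak. Of 6 class I-like genes on other chromosomes, Mr1 and Hfe had a peak in all 3 libraries and Cd1d1 in none.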

How the data were processed

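ATAC-seq peaks of 3 pooled T cell fractions were analysed, 1 list per fraction, in mm10. Per the submitters' processing notes the tools included MACS2 2.1.0, Bowtie2 2.3.2, Trimmomatic 0.33, cutadapt 1.12, bcl2fastq 2.17, SAMtools and Picard. Not given in the sources used here are the read totals, how the duplicates entered the lists, and whether reads were shifted for the transposase or allowed several matches. The deposited lists give, per peak, a score (10 times the −log10 q-value), a fold enrichment ratio over local background, the −log10 p-value, the −log10 q-value and the summit offset; these are the authors' values. The lowest deposited −log10 q was 1.31 in the divided list, 1.30 in the undivided and 1.30 in the polyclonal one.

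The fold was read as (pileup + 1)/(background + 1). Together with the deposited −log10 p-value it gave a whole-number Poisson pileup, within a tolerance of 0.001, for 99.998% of the divided, 100% of the undivided and 99.998% of the polyclonal list. The recovery was tested on simulated peaks. A region's pileup is that of its highest summit in each library, so summits can differ between libraries. Gene spans were those RefSeq lists for GRCm38.p6; 126 protein-coding genes listed there on other sequences than the primary chromosomes were not used, among them H2-Q8, H2-Q9 and H2-T18. A region overlapping a gene of the set and another gene counted for the set (6 regions). The table gives no exons, so exons and introns were not told apart. Promoter windows were found for 37 of 44 genes, without Nlrc5, Ciita, Tap2, H2-Ab1, H2-Q1, H2-T24 and Cd74. No genome sequence was used.

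Named are the strongest region of each gene, regions called in 1 or 2 libraries with a −log10 q of at least 5, and regions past 1.5-fold. The genes and lists were chosen with earlier results of these data known. Alternatives were other thresholds, merging rules, distances, scalings and folds. Python 3.11.15, numpy 2.4.6, pandas 2.3.3 and SciPy 1.17.1 were used.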

Additional observations from a re-analysis of the deposited data

How the results depend on the processing

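No paired analysis was possible because each group has 1 peak list. The count of regions called in all 3 libraries was 57 to 78 under every alternative tried. At a −log10 q of at least 10, regions called in 1 library of the pair undivided and polyclonal numbered 9 (6 undivided and 3 polyclonal), against 23 (10 and 13), so the larger side turned. Scaling by the lowest background in place of the shared regions moved the median ratio to 0.778 for divided over undivided and to 0.858 for divided over polyclonal, below 1 in place of 1.01; the second was 0.98 at a −log10 q of 10 or more. It gave 17 regions past 1.5-fold for divided over undivided (2 higher and 15 lower), against 7 (3 and 4), and for divided over polyclonal 10 (3 higher and 7 lower), against 13 (10 and 3), which turns the larger side. By the authors' fold enrichment the regions past 1.5-fold were 3, 6 and 3 for divided over undivided, divided over polyclonal and undivided over polyclonal, against 7, 13 and 7. Keeping peaks with a −log10 q of 10 or more they numbered 2, 5 and 4, and with a fold of 2 they numbered 4, 4 and 1. The shifts under background scaling follow from the scaling itself, which changes all ratios of a pair by the same factor. Fewer peaks were kept at the stricter q. The causes of the other shifts were not tested. None of the counts in this section was set beside the share of all regions under the same alternative. Regions under about 20 fragments have wide counting intervals, and with 1 peak list per fraction no spread between samples could be set beside any difference.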
